A study of Gallus gallus with 9 samples.

Results

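FOXD3, SNAI2, ETS1, LMO4 and ZEB2 are transcriptional regulators used to follow neural crest cells, and their messages were measured here in single cells of the chick head. The genes were taken as the rows of the count matrices that carry these symbols, which gave 5 of the 16880 genes measured. Each symbol stood on 1 row: FOXD3 on ENSGALG00000042686, SNAI2 on ENSGALG00000030902, ETS1 on ENSGALG00000001143, LMO4 on ENSGALG00000006252 and ZEB2 on ENSGALG00000040465. The cells came from wild-type, untreated chick embryos cut to the tissue at the axial level of the midbrain, with several embryos pooled in each sample, so that a difference between embryos of 1 pool was not measured. Libraries were made at Hamburger-Hamilton stage 5 (HH5, gastrula), at 1 somite stage (1ss), 4 somite stages (4ss) and 7 somite stages (7ss), with 2 libraries at each, and 1 further library was made at HH11. All 9 were Chromium 3′ single-cell libraries, in which a unique molecular identifier (UMI) marks each captured message, and each is called here by its stage and replicate (r1 or r2).

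The neural crest forms at the edge of the neural plate, between future brain and future skin, and its cells later leave the dorsal neural tube and migrate. Regulators at the plate border are followed by so-called specifiers, among them the forkhead factor FOXD3, the zinc-finger repressor SNAI2 and, in the head, the ETS-domain factor ETS1. LMO4 is a LIM-domain cofactor that binds DNA only through other proteins and that works with SNAI2, and ZEB2 is a zinc-finger repressor that lowers cadherin genes during the epithelial-to-mesenchymal transition. Several of these genes also act elsewhere: FOXD3 in the pluripotent epiblast, ETS1 in blood vessels, SNAI2 in mesoderm and ZEB2 in the neural plate.

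After filters on cells and removal of predicted doublets, 93112 of 107749 barcodes remained, with 5287 to 18753 cells a library. The median depth of the kept cells ranged from 1117 to 4303 UMIs between libraries, and the summed UMIs of kept cells ranged from 9617249 to 59249492. HH5 r1 was the deepest library and HH5 r2 the one with fewest UMIs. The 4ss libraries stood apart from each other: over 7797 genes of all cells, 4ss r1 correlated at 0.99 with both 1ss libraries and at 0.95 with 4ss r2, whereas 4ss r2 correlated at 0.99 with 7ss r1 and at 0.98 with 7ss r2, so results are also given below without either of them where that changed a call. The HH11 library has its own dissociation note in the labels and a matrix header from another Cell Ranger version, so its values are given without a test. Any pair of libraries shared 7 to 115 cell barcodes, at most 0.693% of a library. Expression is stated in CPM, obtained by dividing the UMIs of a gene by all UMIs of the same group of cells in a library and multiplying by 1000000. Droplets without a cell held the genes too, with FOXD3 at 0 to 8.66 CPM, SNAI2 at 5.48 to 27.4, ETS1 at 7.07 to 32.7, LMO4 at 40.7 to 187 and ZEB2 at 5.05 to 34.0 CPM, and in no library was free RNA subtracted from the levels below.

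Marker genes were used to split the cells. A cell was put in a class when it held a UMI of exactly 1 of SOX21, a neural plate gene, DLX5, a gene of the non-neural ectoderm and plate border, TWIST1, a gene of head mesoderm and mesenchyme, and KDR, the VEGF receptor of endothelial precursors. Over the 9 libraries 18465 cells held SOX21, 5765 held DLX5, 7095 held TWIST1 and 379 held KDR alone, while 58407 held none of the markers and 3001 held several. The cells without a marker were the shallowest, with medians of 945 to 1761 UMIs against 2042.5 to 6837 in SOX21 cells, so the classes depend on depth as well as on cell type. Because few KDR cells were found, only 4 libraries gave at least 50 of them.

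FOXD3 messages were most frequent at the first and at the last of the 4 replicated stages. In all cells FOXD3 stood at 4.25 CPM in HH5 r1 and 5.82 in HH5 r2, at 1.38 and 0.990 in the 1ss libraries (r1 first here and below), at 0.593 and 0.926 in the 4ss libraries and at 4.92 and 18.1 in the 7ss libraries, with 3.78 in the HH11 library. Both 1ss and both 4ss libraries lay below both HH5 libraries, whereas the 7ss libraries differed from each other by more than 3-fold and the lower of them lay between the HH5 libraries. The log2 difference of FOXD3 from HH5 at 1ss was -2.08 (SE 0.586, adjusted p = 0.405), that at 4ss -2.60 (SE 0.588, adjusted p = 0.103) and that at 7ss 1.24 (SE 0.534, adjusted p = 0.149), none of which passed the edgeR test over all genes at an adjusted p of 0.05. The 4ss value passed by DESeq2 (-2.61), without the filter on low counts (-2.59) and without 7ss r1 (-2.61), and the 1ss value by DESeq2 (-2.09). In such sums over cells, fewer cells with the message and less message per cell cannot be told apart.

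**Figure D1:**
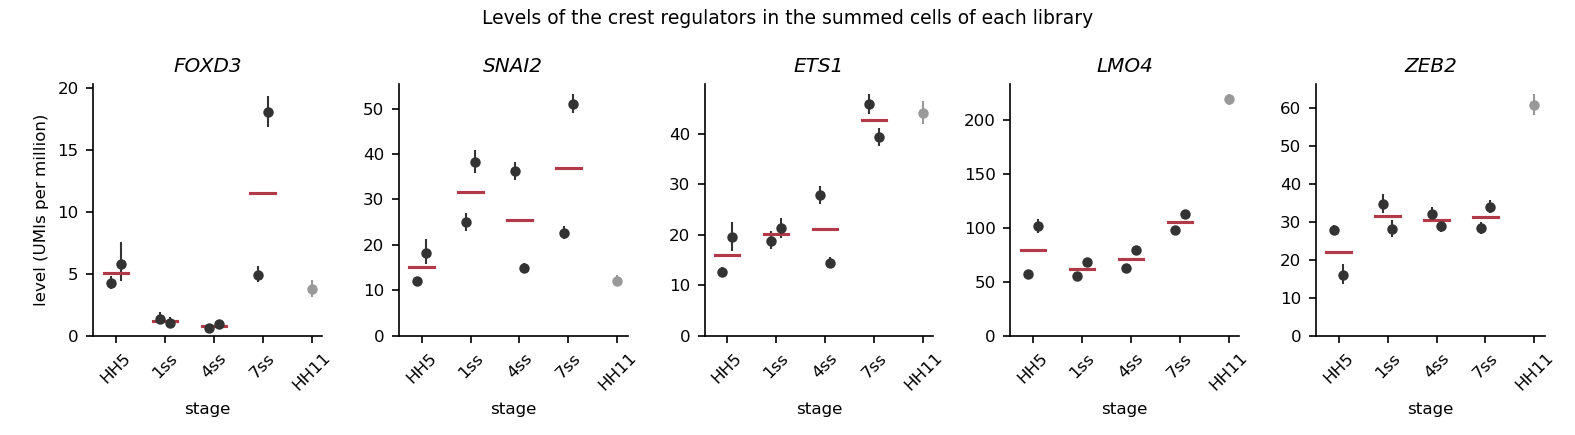
CPM of each gene in all kept cells of each library (y axes, linear from 0), with 95% counting intervals on the points, the mean of the replicates of a stage as a red line and the HH11 library in grey. FOXD3 stands at 4.25 and 5.82 CPM at HH5, at no more than 1.38 CPM at 1ss and 4ss, and is spread from 4.92 to 18.1 CPM at 7ss.

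Shares of cells were also lowest at 1ss and 4ss, with the lower 7ss share just below both HH5 shares. With every cell thinned to 2000 UMIs and shallower cells left out, FOXD3 was found in 0.990% and 0.991% of HH5 cells, 0.195% and 0.296% of 1ss cells, 0.0220% and 0.150% of 4ss cells, 0.953% and 2.48% of 7ss cells and 0.681% of HH11 cells. TWIST1 cells held FOXD3 in 0% to 0.147% of cells up to 7ss and in 0.559% at HH11. They were taken as a class of low FOXD3, so their share gives no measure of free RNA. Empty droplets held FOXD3 at 5.06 CPM in HH5 r1, above the level of all cells there, and at 2.02 in HH5 r2, 4.68 in 7ss r1 and 8.66 in 7ss r2, below it, and the part of free RNA in the shares was not tested. Cells with a FOXD3 UMI mostly held a single one, in 89.6% and 96.3% of them at HH5 and in 75.3% and 63.8% at 7ss.

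The order of FOXD3 levels between SOX21 and DLX5 cells differed between HH5 and 7ss. In SOX21 cells FOXD3 levels were 8.62 and 9.37 CPM in the HH5 libraries, 2.01 and 1.38 in the 1ss, 1.06 and 0.764 in the 4ss and 1.46 and 8.45 in the 7ss libraries. In DLX5 cells they were 1.68 and 2.31 CPM in the HH5 libraries, 0.397 and 0.409 in the 1ss, 0 and 0.864 in the 4ss and 10.3 and 43.9 in the 7ss libraries. Both HH5 libraries therefore held more FOXD3 in SOX21 than in DLX5 cells, and both 7ss libraries held more in DLX5 than in SOX21 cells. Within DLX5 cells the rise from HH5 to 7ss was 3.89 on the log2 scale (SE 0.760, edgeR adjusted p = 0.0145), and within SOX21 cells the change was -0.78 (SE 0.615, adjusted p = 0.427). The difference between these stage changes was 4.77 (SE 0.447, edgeR adjusted p = 1.56e-07). The call in DLX5 cells was lost without HH5 r1 (log2 3.53), HH5 r2 (4.00) or 7ss r2 (2.51), while the difference kept its call with each library left out. TWIST1 cells held at most 0.345 CPM up to 4ss, 0.676 and 3.15 CPM at 7ss and 2.93 at HH11. Many FOXD3 UMIs lay outside these classes. At HH5 72 of 252 FOXD3 UMIs in r1 and 38 of 56 in r2 lay in cells that held none of the 4 markers, where FOXD3 stood at 4.11 and 7.01 CPM. At 7ss 149 of 226 FOXD3 UMIs in r1 and 429 of 819 in r2 lay in such cells, where FOXD3 stood at 8.23 and 27.6 CPM. The empty-droplet levels given above lay below the SOX21 cells and above the DLX5 cells of HH5 r1, below the SOX21 cells of HH5 r2, and below the DLX5 cells and above the SOX21 and TWIST1 cells at 7ss.

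SNAI2 was present at all stages, with a class order that turned between HH5 and 7ss. In all cells it stood at 11.9 and 18.3 CPM in HH5, 24.96 and 38.2 in 1ss, 36.2 and 14.9 in 4ss, 22.6 and 51.1 in 7ss and 12.1 in HH11 libraries. All 1ss and 7ss libraries lay above both HH5 libraries, while the 4ss libraries lay on both sides of HH5 r2. The difference of 7ss from HH5 was 1.34 on the log2 scale (SE 0.461, edgeR adjusted p = 0.0905), and it passed without 4ss r1 or 4ss r2 (both 1.35), by DESeq2 (1.35) and without the filter on low counts (1.34).

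In TWIST1 cells SNAI2 was highest early, at 43.6 and 70.0 CPM in HH5, 77.1 and 102 in 1ss, 63.2 and 17.8 in 4ss, 22.99 and 38.5 in 7ss and 22.4 in HH11 libraries. In DLX5 cells it was lowest early, at 3.15 and 6.17 CPM in HH5, 19.5 and 15.1 in 1ss, 31.2 and 28.1 in 4ss, 46.9 and 71.1 in 7ss and 15.9 in HH11 libraries. At HH5 both TWIST1 sums lay above both DLX5 sums, and at 7ss both DLX5 sums lay above both TWIST1 sums. SNAI2 rose from HH5 to 7ss by 3.94 in DLX5 cells (SE 0.382, 15.4-fold, edgeR adjusted p = 0.000428) and by 2.19 in SOX21 cells (SE 0.600, edgeR adjusted p = 0.049998), where it went from 2.54 and 5.11 to 7.17 and 19.8 CPM. Empty droplets held SNAI2 at 5.48 and 9.10 CPM at HH5 and at 7.80 and 27.4 CPM at 7ss. The SOX21 sums lay below these levels in each of these libraries. The DLX5 sums lay below them at HH5 and above them at 7ss. How much of the SNAI2 level in SOX21 cells was free RNA was not tested. The call in DLX5 cells was kept with each library left out, and that in SOX21 cells was lost without HH5 r1 (1.46), HH5 r2 (2.43), 1ss r1 or 1ss r2 (both 2.17), 7ss r1 (2.70) or 7ss r2 (1.28). In TWIST1 cells the value was -0.91 (SE 0.471, adjusted p = 0.230), which passed without 4ss r2 (-0.92). The change in TWIST1 cells was lower than that in SOX21 cells by 2.89 on the log2 scale (SE 0.426, edgeR adjusted p = 4.05e-05), and the change in DLX5 cells was higher than that in SOX21 cells by 1.84 (SE 0.562, adjusted p = 0.0530), which missed the threshold. The former was lost without HH5 r1 (-2.58), and the latter passed without 4ss r1 (1.82), 4ss r2 (1.84) or 7ss r2 (2.36).

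ETS1 was the only one of the 5 genes with a stage change that passed the test in all cells. It stood at 12.6 and 19.4 CPM in HH5, 18.8 and 21.3 in 1ss, 27.8 and 14.5 in 4ss, 45.9 and 39.3 in 7ss and 44.1 in HH11 libraries. Both 7ss libraries lay above all libraries of earlier stages. The rise from HH5 to 7ss was 2.78-fold (log2 1.48, SE 0.314, edgeR adjusted p = 0.0246). This call was lost when HH5 r1, 1ss r1, 1ss r2, 7ss r1 or 7ss r2 was left out, with log2 changes of 1.20 to 1.79 over all libraries left out in turn. In KDR cells ETS1 stood at 12.1 CPM in HH5 r1, 252 in 4ss r2, 255 in 7ss r2 and 418 in HH11, with all 3 later libraries far above HH5 r1. ETS1 also rose from HH5 to 7ss within DLX5 cells, from 21.3 and 34.7 to 70.8 and 74.7 CPM (log2 1.47, SE 0.372, edgeR adjusted p = 0.0405), and within TWIST1 cells, from 16.9 and 20.4 to 42.6 and 40.7 CPM (log2 1.14, SE 0.311, adjusted p = 0.0406). Both calls were lost when any HH5, 1ss or 7ss library was left out, at 1.09 (HH5 r1) to 1.80 (HH5 r2) in DLX5 cells and 1.00 (HH5 r1) to 1.23 (HH5 r2) in TWIST1 cells. In SOX21 cells it stood between 7.30 and 15.3 CPM over the 8 libraries, with no change that passed the test (log2 0.49, SE 0.337, adjusted p = 0.361).

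LMO4 stood at 57.1 and 101 CPM in HH5, 55.4 and 67.8 in 1ss, 62.4 and 79.5 in 4ss, 98.3 and 113 in 7ss and 219 in HH11 libraries. The HH5 libraries spanned most of the range of the other replicated stages, and the difference of 7ss from HH5 was 0.47 on the log2 scale (SE 0.298, edgeR adjusted p = 0.311). In DLX5 cells LMO4 stood at 62.8 and 99.5 CPM in the HH5, 143 and 195 in the 7ss and 383 in the HH11 libraries. The HH5 and 7ss sums did not overlap, and their difference was 1.11 (SE 0.324, edgeR adjusted p = 0.0623), which passed without 4ss r1 (1.13) or 4ss r2 (1.12). The stage difference in DLX5 cells was higher than that in SOX21 cells by 0.88 (SE 0.172, edgeR adjusted p = 0.00182), a call lost without HH5 r1 (1.04) or 7ss r2 (0.73). That in TWIST1 cells lay -0.57 from SOX21 cells (adjusted p = 0.0296), a call lost without HH5 r1 (-0.54), HH5 r2 (-0.55), 7ss r1 (-0.58) or 7ss r2 (-0.56) and by DESeq2 (-0.56).

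ZEB2 was lower in DLX5 cells than in SOX21 cells. In SOX21 cells it stood at 52.2 and 34.9 CPM in HH5, 51.9 and 46.5 in 1ss, 54.6 and 41.9 in 4ss, 39.3 and 40.6 in 7ss and 85.2 in HH11 libraries. In DLX5 cells it stood at 3.15 and 3.85 CPM in HH5, 3.18 and 3.68 in 1ss, 3.35 and 6.05 in 4ss, 14.5 and 14.4 in 7ss and 34.6 in HH11 libraries. ZEB2 lay lower in DLX5 than in SOX21 cells in all 9 libraries, and within DLX5 cells it rose from HH5 to 7ss by 2.13 on the log2 scale (SE 0.433, edgeR adjusted p = 0.0175), 2.45 more than in SOX21 cells (SE 0.349, edgeR adjusted p = 4.41e-05). Empty droplets held ZEB2 at 15.6 and 5.05 CPM at HH5 and at 14.0 and 23.1 CPM at 7ss. The DLX5 cells lay below these levels in both HH5 libraries and in 7ss r2, and near them in 7ss r1. How much of the ZEB2 level in DLX5 cells was free RNA was not tested. In TWIST1 cells ZEB2 stood at 18.7 to 40.7 CPM over the 8 libraries and at 42.5 at HH11, partly within the range of SOX21 cells. In KDR cells it stood at 18.2 CPM in HH5 r1, 34.3 in 4ss r2, 105 in 7ss r2 and 89.2 in HH11. The rise in DLX5 cells lost its call without HH5 r1 (1.92), 7ss r1 (2.12) or 7ss r2 (2.15), and the difference without HH5 r1 (1.698). Over all cells ZEB2 stood at 16.0 to 34.7 CPM in the 8 libraries and at 60.8 at HH11, with no stage change past the test.

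**Figure D2:**
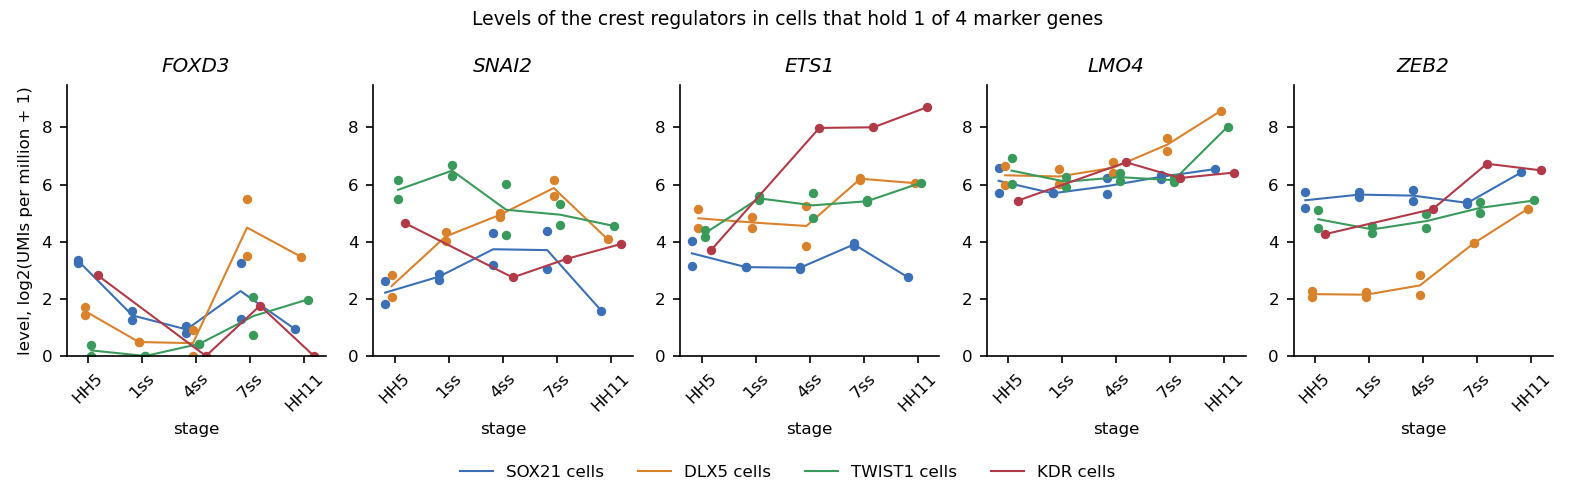
Level of each gene as log2(CPM + 1) (y axes) by marker class and library, for sums of at least 50 cells. ZEB2 in DLX5 cells lies below ZEB2 in SOX21 cells in every library, ETS1 is highest in KDR cells from 4ss on, and FOXD3 in DLX5 cells is low at HH5 and high at 7ss.

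Counted over the tests, the stage comparison in all cells called none of the 5 genes by edgeR at 1ss against HH5, where 0.0397% of 12581 genes were called, and none at 4ss, where 0.66% were called. At an unadjusted p under 0.05, 998 and 1848 genes passed at these stages, FOXD3 among them at both and SNAI2 at 1ss, and DESeq2 called 1 of the 5 genes at each. At 7ss against HH5 ETS1 was called, among 9.51% of genes. The 3 stage comparisons share the HH5 libraries. Within SOX21 cells 1 of 5 members was called at 7ss (7.93% of 11057 genes), within DLX5 cells 4 of 5 (7.03% of 9086), all higher (3.17% of genes were higher), and within TWIST1 cells 1 of 4 (9.51% of 9638), with FOXD3 too low there to be tested. The difference of stage changes was called for 3 of 5 genes between DLX5 and SOX21 cells (5.78% of 10559) and for 3 of 5 between TWIST1 and SOX21 cells (15.1%), with SNAI2 and LMO4 lower and FOXD3 higher by 3.55 (SE 0.865, adjusted p = 0.00652) in TWIST1 cells. FOXD3 was at or below 3.15 CPM in all of these TWIST1 sums, and its call was lost without HH5 r1 (7.40) or 7ss r2 (3.82).

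Over the 4 replicated stages the classes themselves differed. Against SOX21 cells of the same library, DLX5 cells held more ETS1 (3.82-fold), SNAI2 (3.01-fold) and LMO4 (1.66-fold) and 7.18-fold less ZEB2, so 4 of 5 genes were called by edgeR where 26.3% of 10442 genes were. TWIST1 cells held more SNAI2 (6.37-fold) and ETS1 (3.74-fold) and less FOXD3 (7.74-fold) and ZEB2 (1.74-fold), 4 of 5 genes where 38.7% of all genes were called. In KDR cells ETS1 alone was called, 14.5-fold higher (log2 3.86, SE 0.475, adjusted p = 5.48e-06) where 16.8% of genes were, from 3 libraries with enough KDR cells. This call was lost in cells of at least 2000 UMIs (1.01). That limit changed the libraries as well as the depth. It took out 4ss r2, whose 61 KDR cells had a median of 1648 UMIs, and 7ss r2 held only 52 KDR cells before it, against the minimum of 50. LMO4 in TWIST1 cells passed only without 7ss r2 (0.30 against 0.24 with all libraries). FOXD3 in DLX5 cells did not pass the test against SOX21 cells with 1 effect over the stages (log2 0.29, SE 0.569), a value that averages over the opposite orders at HH5 and 7ss given above.

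Which genes accompany each regulator was read from cells with and without a UMI of it in the same library. Sums over cells with the UMI were compared with sums over cells without it, with library as a block and the gene itself left out. The 1ss and 4ss libraries held only 21 to 38 FOXD3 cells each, below the minimum of 50. For FOXD3 cells, effects over all stages therefore cover the HH5 and 7ss libraries only. The cells with a UMI were deeper, for FOXD3 with medians of 8128.5 against 4240 UMIs in HH5 r1, 2367 against 1319 in HH5 r2, 11473.5 against 1292 in 7ss r1 and 10305.5 against 1389.5 in 7ss r2. When cells of at least 2000 UMIs were thinned to 2000 and split anew, only HH5 r1 and 7ss r2 still held at least 50 FOXD3 cells. The unthinned fit held 4 libraries, so the refit is a limited check on depth. Its effects in FOXD3 cells were 2.00 for SNAI2 and 1.82 for ETS1, against 1.86 and 2.03 in the unthinned sums, and both stayed called. That of ZEB2 was 0.27 against 0.91, no longer called, and the effects in FOXD3 cells by stage could not be fitted at this depth. Effects by stage were fitted after the effects over all stages had been seen.

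Cells with FOXD3 held more SNAI2, ETS1 and LMO4 than other cells at 7ss, and less SNAI2 at HH5, a value that rests on r1. The 222 and 54 FOXD3 cells of the HH5 libraries held 5 and 0 UMIs of SNAI2, or 2.82 and 0 CPM, against 12.2 and 18.6 CPM in the other cells. The 166 and 414 FOXD3 cells of the 7ss libraries held 211 and 925 UMIs, or 117 and 224 CPM, against 18.8 and 33.7 CPM. SNAI2 in FOXD3 cells thus lay above the other cells in both 7ss libraries. At HH5 it lay below them in r1, on 5 UMIs. The 54 FOXD3 cells of HH5 r2 were too few for 0 UMIs to show a lower level. The edgeR differences were -2.33 at HH5 (SE 0.517, adjusted p = 0.00049) and 2.69 at 7ss (SE 0.117, adjusted p = 1.96e-111), and they differed from each other by 5.02 (SE 0.412, adjusted p = 8.72e-31). The fit held 8 sums of 4 libraries and 2 residual degrees of freedom, so the size of these p-values rests on the spread shared across genes, and DESeq2 did not call SNAI2 at HH5. Without HH5 r1 only the library with 0 SNAI2 UMIs remained at HH5, and the value there was -11.2 and not called, while the 7ss value kept its call with each library left out.

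ETS1 in FOXD3 cells stood at 8.46 and 13.4 CPM at HH5 against 12.8 and 19.5 in the other cells, and at 272 and 168 CPM at 7ss against 36.7 and 26.4. LMO4 stood at 43.4 and 93.5 CPM against 57.5 and 102 at HH5 and at 327 and 366 CPM against 88.9 and 87.1 at 7ss. For both genes the HH5 sums lay slightly below the other cells and the 7ss sums far above them. At 7ss ETS1 was 2.78 higher on the log2 scale (SE 0.111) and LMO4 1.98 higher (SE 0.102), the stage differences were 3.41 and 2.37, and all 4 values were called by edgeR, with adjusted p of at most 6.13e-25. ZEB2 behaved otherwise: it was higher in FOXD3 cells at HH5 (log2 1.19, SE 0.199, edgeR adjusted p = 3.98e-07) and at 7ss (0.80, SE 0.137, adjusted p = 2.16e-07), with a stage difference of -0.39 that did not pass (SE 0.234, adjusted p = 0.440). In HH5 r2 the FOXD3 cells held 1 UMI of ZEB2, so the HH5 value rests on r1, where ZEB2 stood at 66.5 against 26.6 CPM, and without r1 it was -1.48 and not called. DESeq2 called ZEB2 at neither stage (0.87 and 0.82). In the HH11 library, FOXD3 cells held 26.1 CPM of SNAI2, 202 of ETS1, 1027 of LMO4 and 83.9 of ZEB2, against 11.7, 40.4, 200.3 and 60.3 CPM in the other cells.

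Co-detection was also read cell by cell. At 2000 UMIs a cell, 0 of 78 FOXD3 cells in HH5 r1 and 0 of 17 in HH5 r2 held SNAI2, which allows shares of up to 3.85% and 17.6%, against 2.40% and 2.89% of the other cells, so a lower share in FOXD3 cells was not detectable at this depth. At 7ss 11 of 47 (23.4%) and 50 of 133 (37.6%) FOXD3 cells held SNAI2, against 3.64% and 6.28% of the others. ETS1 was found in 0 of 78 and 0 of 17 FOXD3 cells at HH5 and in 21 of 47 (44.7%) and 39 of 133 (29.3%) at 7ss, against 6.098% and 4.76%. Before 7ss no cell with FOXD3 held SNAI2 or ETS1 at this depth in any library, and at 1ss and 4ss only 1 to 9 FOXD3 cells a library were deep enough to be looked at.

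**Figure D3:**
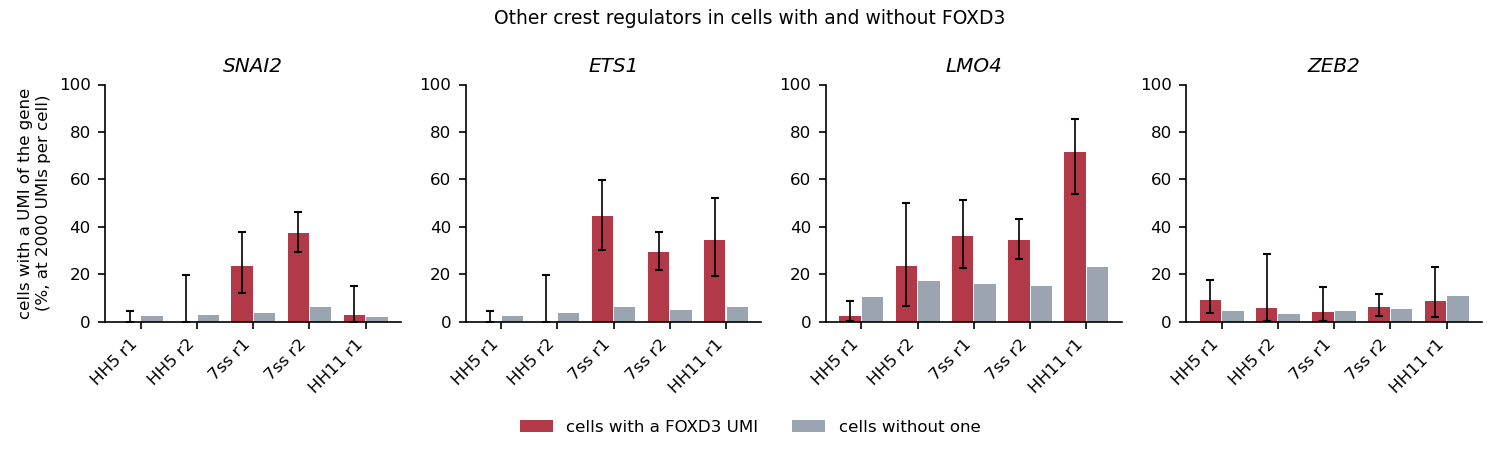
Percent of cells that held SNAI2, ETS1, LMO4 or ZEB2 (y axes) among cells with a FOXD3 UMI (red, exact 95% intervals) and among cells without one (grey), at 2000 UMIs a cell, for the libraries with at least 15 FOXD3 cells. The red bars for SNAI2 and ETS1 are at 0 at HH5 and at 23.4% to 44.7% at 7ss, and those for ZEB2 stay at 4.26% to 8.97%.

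The marker genes were also read in FOXD3 cells. These values are the reverse reading of the FOXD3 levels in SOX21, DLX5 and TWIST1 cells and no second line of evidence. SOX21 was higher in FOXD3 cells at HH5 (log2 1.01, SE 0.144, edgeR adjusted p = 4.64e-10) and lower at 7ss (-1.79, SE 0.125, adjusted p = 8.63e-44). DLX5 was lower at HH5 (-1.51) and higher at 7ss (0.53), and TWIST1 was lower at both stages (-2.87 and -2.43), all called. By cells, SOX21 was found in 29.5% and 29.4% of FOXD3 cells at HH5 against 15.7% and 10.6% of the others, and in 4.26% and 7.52% at 7ss against 18.9% and 32.0%.

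Counted by test, at 7ss the 4 other regulators were all called higher in FOXD3 cells, where 9.34% of 10443 genes were called higher and 19.5% in either direction. At HH5 ZEB2 was called higher and SNAI2 lower, where 2.84% of genes were called, and the stage difference was called for 3 of 4 (5.36%). With 1 effect over HH5 and 7ss, ETS1, SNAI2 and ZEB2 were called by edgeR, 3 of 4 members where 3.16% of 9717 genes were called, and DESeq2 called none of the 4. Without 7ss r2 SNAI2 (0.97) and ETS1 (1.51) lost their calls, without HH5 r2 SNAI2 did (2.00), and LMO4 (1.16, not called) passed without HH5 r1 (1.72) or 7ss r1 (0.76).

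Other genes of the crest network moved with FOXD3 at 7ss. Of 19 tested genes of the network, 12 were higher and 2 lower in FOXD3 cells at 7ss (median log2 1.15, against 0.00 over all genes). Over all genes 9.34% were called higher and 19.5% in either direction. This list and those below were chosen with earlier results of these data known, so their counts are a description and no independent support. SOX10, the crest SOX factor, was 3.92 higher (SE 0.251), the AP-2 factor TFAP2B 3.47, SOX9 2.83, the paired-box factor PAX7 2.70, TFAP2A 2.67 and SOX8 2.42. At HH5 only 1 of the 19 was higher and 4 were lower (median -1.18, against -0.04), the border homeobox genes MSX2 (-2.68) and MSX1 (-2.21) among the lower ones. Of all genes 2.84% were called at HH5 in either direction. The summed level of 7 neural crest markers, 6 of them also in the network list, was 22.0 and 26.7 CPM in FOXD3 cells at HH5 against 16.9 and 25.03 in the other cells, and 545 and 561 CPM at 7ss against 66.0 and 71.3. Of these markers 5 of 6 tested were called higher at 7ss and none at HH5, where 6 of the 7 were at 0 in HH5 r2.

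Genes of relatives and of adhesion were mixed. Of 11 relatives and partners tested at 7ss, 6 were lower in FOXD3 cells, among them LMO2 (-2.14), FLI1 (-1.82), ETS2 and SNAI1 (both -1.59), LDB1 (-1.26) and LMO1 (-1.06), and 1 was higher. SNAI1, the other SNAIL-family repressor, was 1.22 higher at HH5, the opposite sign. Of 11 adhesion genes 4 were higher and 4 lower at 7ss: the cadherin gene CDH6 rose by 1.92, RHOB by 1.34, fibronectin FN1 by 0.77 and CDH1 by 0.73, while CDH2 (-1.57) and vimentin VIM (-0.89) were lower. At HH5 FN1 (-1.91) and CDH2 (-1.33) were lower, and CLDN1 (0.55) and EPCAM (0.46) were higher.

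Markers of other tissues were given by list for the same cells. Mesoderm markers were lower in FOXD3 cells, 4 of 5 at HH5 and 3 of 5 at 7ss, and non-neural ectoderm markers were lower in 6 of 7 at HH5 and in 5 of 7 at 7ss, where TFAP2A was the 1 higher. The summed level of the non-neural ectoderm markers was 148 and 100.1 CPM in FOXD3 cells at HH5 against 814 and 377 in the other cells, and at 7ss it was 358 and 374 CPM against 314 and 230, higher in both libraries although most of the markers were lower. Of 8 endothelium markers 5 were lower at 7ss. The genes with the largest rise in both libraries were, at 7ss, ANOS1 (log2 4.46), AVP (4.18), RYR3 (3.93), SOX10 (3.92) and the prohormone convertase PCSK1 (3.84), and at HH5 the hyaluronan synthase HAS3 (2.89), the carbonic anhydrase CA2 (2.60), RGS2 (2.48), LAMP5 (2.30) and ARHGAP15 (2.12). Over HH5 and 7ss together they were SOX9 (2.28), ELL2 (2.01), DOK5 (1.98), CDON (1.89) and STMN3 (1.80).

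Cells with SNAI2 held more FOXD3 than other cells at 7ss, and less at HH5, a value that rests on r1. FOXD3 stood at 1.31 and 0 CPM in SNAI2 cells at HH5 against 4.50 and 6.11 in the other cells, and at 21.6 and 67.5 CPM at 7ss against 2.16 and 5.71. These values are the reverse reading of the same co-detection and no second line of evidence. In SNAI2 cells at 7ss FOXD3 was 3.40 higher (SE 0.147), ETS1 1.85 higher (SE 0.0988), LMO4 1.36 higher (SE 0.0914) and ZEB2 0.36 higher (SE 0.124, edgeR adjusted p = 0.0371), all 4 called higher where 8.51% of 11187 genes were and 17.0% in either direction. ZEB2 lost its call without either HH5 library (both 0.38), 7ss r1 (0.41) or 7ss r2 (0.28) and at 2000 UMIs (0.29), where the other 3 stayed called at 1.52 to 2.91. At HH5 FOXD3 was 1.98 lower (SE 0.498, edgeR adjusted p = 0.00575), 1 of 4 called where 9.93% of genes were, and the call was lost without HH5 r1 (-9.60), by DESeq2 (-2.06) and at 2000 UMIs (-7.70). The stage difference was 5.38 for FOXD3, 1.72 for ETS1 and 1.21 for LMO4, 3 of 4 called where 7.34% of genes were, with edgeR adjusted p of at most 4.11e-07. The ETS1 difference was not called at 2000 UMIs (1.47).

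At HH5 SNAI2 cells carried mesoderm genes. All 5 mesoderm markers tested were higher at HH5 (median log2 2.11), with PDGFRA 2.29 and TCF21 2.36 higher, and 6 of 7 neural markers were lower. The summed mesoderm marker level was 294 and 249 CPM in SNAI2 cells at HH5 against 82.1 and 69.7 in the other cells. TWIST1 was found in 44.4% and 71.4% of SNAI2 cells in HH5, 39.0% and 39.8% in 1ss, 19.7% and 6.50% in 4ss, 9.52% and 2.38% in 7ss and 31.0% in HH11 libraries. The share in both 7ss libraries lay far below both HH5 libraries. Cells with TWIST1 as their only marker made up 8.17% and 10.7% of all unthinned cells at HH5 and 6.47% and 5.07% at 7ss. These class shares were read at full depth and leave out cells with several markers. They are no like reference for the thinned shares in SNAI2 cells, and no direction was read from them. In the test of unthinned sums TWIST1 was 2.43 higher in SNAI2 cells at HH5 (SE 0.112), 0.62 higher at 7ss (SE 0.106), and lower by 1.81 in the difference (SE 0.151, edgeR adjusted p = 3.46e-11). This is the reverse reading of SNAI2 in TWIST1 cells.

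At 7ss SNAI2 cells carried crest genes, and all 5 mesoderm markers tested were still higher (median log2 1.05). Of 19 network genes 11 were higher and 1 lower in SNAI2 cells at 7ss (median 0.61), with SOX10 3.19, TFAP2B 2.86, SOX9 2.21, TFAP2A 2.03, PAX7 1.99 and MSX2 1.84 higher, whereas at HH5 2 were higher and 3 lower. SNAI2 represses epithelial junction genes in many tissues. Of 12 adhesion genes 7 were lower in SNAI2 cells at HH5, with claudin CLDN1 at -1.90, EPCAM at -1.34, FN1 at -0.97 and occludin OCLN at -0.97, and CDH6 was 1.43 higher. At 7ss 6 were higher, with CDH6 at 1.65, CDH11 at 0.91, FN1 at 0.90, RHOB at 0.75 and CDH1, the epithelial cadherin, at 0.48, and VIM was lower at -0.45. The genes with the largest rise were VEGFD (3.02), HAND2 (2.94), EBF2 (2.73), FHL1 (2.51) and WNT8A (2.49) at HH5, and BMPER (3.80), ANOS1 (3.76), FOXD3, SOX10 and RYR3 (3.06) at 7ss. Over all stages they were CER1 (1.85), PDGFRA (1.85), HAND2 (1.82), ALX1 (1.71) and MSX2 (1.65), where ETS1 (0.90, SE 0.222, edgeR adjusted p = 0.0137) and LMO4 (0.59, SE 0.148, adjusted p = 0.0155) were 2 of 4 members called beside 17.0% of 10131 genes, and FOXD3 (1.61, not called) passed without HH5 r1 (2.17).

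Vessel, crest and mesoderm genes were higher in ETS1 cells at 7ss. Of 8 endothelium markers 7 were higher in ETS1 cells at 7ss (median log2 2.79), led by VE-cadherin CDH5 (4.23) and the blood and vessel factors FLI1 (3.47), LMO2 (3.16) and TAL1 (3.11), and none was called at HH5. KDR was 1.47 higher at HH5 (SE 0.258, edgeR adjusted p = 0.000357) and 3.53 higher at 7ss (SE 0.172). These KDR values are the reverse reading of ETS1 in KDR cells. In ETS1 cells at 7ss 12 of 19 network genes were higher and 2 lower, with SOX10 at 3.38 and TFAP2B at 2.89. Of 5 mesoderm and mesenchyme markers 4 were higher, with a summed level of 503 and 246 CPM against 254 and 173 in the other cells. Of 6 endoderm markers 1 was higher and 3 were lower, with a summed level of 360 and 315 CPM against 227 and 208. KDR was found in 2.51% and 5.21% of ETS1 cells at 7ss and FOXD3 in 6.58% and 13.5%, at 2000 UMIs.

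FOXD3 stood at 2.67 and 3.97 CPM in ETS1 cells at HH5 against 4.42 and 5.93 in the other cells, and at 19.0 and 70.4 CPM at 7ss against 1.44 and 6.79. The 7ss values lay above the other cells in both libraries, and the HH5 values below them. At 7ss FOXD3 was 3.38 higher in ETS1 cells (SE 0.150), SNAI2 1.75 (SE 0.0972), LMO4 1.46 (SE 0.0913) and ZEB2 0.44 (SE 0.119, edgeR adjusted p = 0.00533), 4 of 4 called higher where 12.1% of 11258 genes were and 25.7% in either direction. ZEB2 lost its call without 7ss r1 (0.38), by DESeq2 (0.45) and at 2000 UMIs (0.28), and the others stayed called at 2000 UMIs, at 1.61 to 3.07. At HH5 edgeR called none of the 4 where 1.1% of genes were called and 792 genes had an unadjusted p under 0.05, of which FOXD3 was 1, and DESeq2 called none. The stage difference was 4.11 for FOXD3, 1.68 for SNAI2 and 1.37 for LMO4, called where 4.84% of genes were. That of ZEB2 (0.57, not called) passed without 4ss r1 (0.60) or 4ss r2 (0.58). Over all stages SNAI2 (0.95, SE 0.186, edgeR adjusted p = 0.00465) was the 1 of 4 called beside 12.7% of 10161 genes, FOXD3 (1.68, not called) passed without HH5 r1 (2.22) or 1ss r1 (1.86), and the largest rises were those of TAL1 (2.96), the VEGF receptors FLT1 (2.83) and KDR (2.79), CD34 (2.56) and SOX18 (2.06). The largest rises at 7ss were MYCT1 (4.84), STAB2 (4.57), SH3TC1 (4.24), CDH5 and DLL4 (4.09), and at HH5 INHA (2.15), VGLL1 (1.98), WISP1 (1.78) and the keratins KRT17 (1.57) and KRT14 (1.49).

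LMO4 was the most broadly detected of the genes, in 9.94% to 17.1% of cells of the 8 libraries at 2000 UMIs, and its cells were the least distinct at HH5. There edgeR called 16 genes, 0.134% of 11967, and none of the 4 members, with 846 genes at an unadjusted p under 0.05, of which FOXD3 was 1, and DESeq2 called none of the 4. At 7ss all 4 members were called higher where 14.5% of genes were and 33.2% in either direction, with FOXD3 at 2.08 (SE 0.143), ETS1 at 1.22 (SE 0.0928), SNAI2 at 1.07 (SE 0.109) and ZEB2 at 0.29 (SE 0.104, edgeR adjusted p = 0.0362). ZEB2 lost its call without HH5 r2 (0.28), 7ss r1 (0.26) or 7ss r2 (0.29) and by DESeq2 (0.27), and it turned to -0.04 at 2000 UMIs, where the other 3 stayed called at 1.58 to 1.83. The stage difference was called for FOXD3 (2.62), ETS1 (1.15) and SNAI2 (0.83) beside 2.37% of genes, and by DESeq2 for none of them. ETS1 lost it without HH5 r1 (1.15), and SNAI2 without HH5 r1 (0.44), HH5 r2 (0.97) or 7ss r2 (0.74). Of 19 network genes 9 were higher and 1 lower at 7ss, with SOX10 at 2.57 and TFAP2B at 1.85, and none was called at HH5. Over all stages SNAI2 (0.53, SE 0.113) and ETS1 (0.42, SE 0.154, edgeR adjusted p = 0.0498) were called, 2 of 4 beside 26.7% of 11048 genes. ETS1 lost its call without any HH5, 1ss or 7ss library, at 0.26 (7ss r2) to 0.47 (HH5 r1), and FOXD3 (0.83, not called) passed without HH5 r1 (1.21), 1ss r1 (0.93) or 1ss r2 (0.91).

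The largest rises in LMO4 cells were small over all stages, at 0.92 for RRAD, 0.83 for LCAT, 0.80 for MPZL2 and SLC4A4 and 0.78 for FREM1. At HH5 they were SPP1 (1.86), FGB (1.03), ACSBG2 (0.80), PRRX1 (0.65) and GATA5 (0.65). At 7ss they were PPP1R1C (2.78), SOX10, COL9A3 (2.42) and PPP4R4 (2.37), beside the erythroid anion exchanger SLC4A1. PPP4R4 and SLC4A1 stood near the floor, at mean levels of 0.254 and 0.224 CPM in cells with LMO4 against 0.0389 and 0 CPM without. COL9A3 stood at 1.06 against 0.175 CPM.

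ZEB2 cells held fewer messages of non-neural ectoderm than other cells at both stages. At HH5 all 8 non-neural ectoderm markers were lower in ZEB2 cells (median log2 -2.36), with GATA3 at -3.66 and EPAS1 at -2.85, and at 7ss 6 of 8 were lower. DLX5 was lower at both stages (-2.71, SE 0.176, and -1.92, SE 0.146), and SOX21 was 0.72 higher at HH5 (SE 0.118, edgeR adjusted p = 0.000119). The values of these 2 markers are the reverse reading of the ZEB2 levels in DLX5 and SOX21 cells. DLX5 was found in at most 4.53% of ZEB2 cells of any library and SOX21 in 20.1% to 32.1%. Without thinning, cells with DLX5 as their only marker made up 3.34% to 12.4% of all cells of a library. Those with SOX21 made up 9.23% to 27.4%. These class shares leave out cells with several markers and were read at full depth. They are no like reference for the shares in ZEB2 cells, so neither a difference nor a lack of one was read from them. FOXD3 was 1.16 higher in ZEB2 cells at HH5 (SE 0.280, edgeR adjusted p = 0.0115), 1 of 4 members where 3.68% of 11417 genes were called, and 0.95 higher at 7ss (SE 0.184, adjusted p = 0.000319), where ETS1 (0.41) and SNAI2 (0.40) were also called, 3 of 4 higher beside 15.8% of genes higher and 33.9% in either direction. The HH5 call was lost without HH5 r1, where it turned to -1.37, without 7ss r2 (1.06) and by DESeq2 (0.91), and at 7ss ETS1 and SNAI2 lost theirs without 7ss r1 (0.34 and 0.42) or 7ss r2 (0.49 and 0.40). At 2000 UMIs none of the 3 stayed called at 7ss, with FOXD3 at 0.06, SNAI2 at 0.50 and ETS1 at 0.31. The stage difference was called by edgeR for none of the 4 beside 2.01% of genes, with 2004 genes at an unadjusted p under 0.05, of which ETS1 was 1, and by DESeq2 for none. ETS1 (0.63, not called) passed without 4ss r1 (0.64) or 4ss r2 (0.66).

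At 7ss 7 of 8 endothelium markers were higher in ZEB2 cells (median 0.93), with CDH5 at 1.87, and 6 of 7 crest markers were higher (median 0.56), with the crest cadherin CDH7 at 1.38. Over all genes 15.8% were called higher and 33.9% in either direction. ZEB2 cells were deeper at 7ss, with medians of 11611 and 10469 UMIs against 1221 and 1306 in the other cells. The 7ss calls of FOXD3, SNAI2 and ETS1 in ZEB2 cells were lost in thinned cells, as given above. How far the list counts rest on depth was not tested. The neural, notochord and endoderm lists are not given for ZEB2 cells, so the counts single out no tissue. Large rises were those of BCAN (1.27), BEGAIN (1.24), SORCS1 (1.12) and GDPD4 (1.08) over all stages, LEUTX (1.73), GDPD4 (1.67), FBXL16 (1.51), BEGAIN (1.46) and ARHGAP15 (1.39) at HH5, and SH3TC1 (2.40), SLCO2A1 (2.29), MRC1 (1.98), MYCT1 (1.97) and GYPC (1.95) at 7ss. FOXD3 (0.86, SE 0.176, edgeR adjusted p = 0.00231) was the 1 of 4 called over all stages beside 35.4% of 10387 genes.

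**Figure D4:**
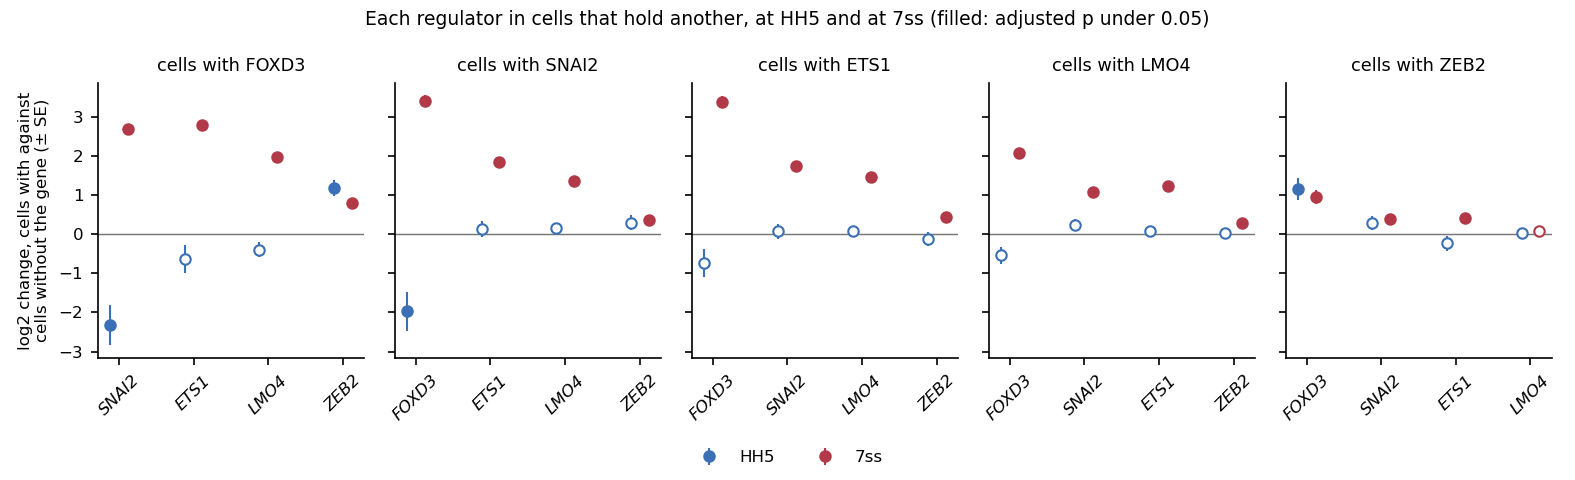
Log2 difference of each gene (y axes, ± SE) between cells with and cells without a UMI of another of the 5 genes, at HH5 (blue) and 7ss (red), filled where the edgeR adjusted p was under 0.05. The 7ss points for FOXD3, SNAI2, ETS1 and LMO4 with each other lie at 1.07 to 3.40, above their HH5 points, and ZEB2 shows no stage difference that passed.

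Cells that held several of the genes were more frequent in the 7ss libraries. At 2000 UMIs, at least 2 of the 5 were found in 1.37% and 2.39% of HH5, 1.88% and 2.21% of 1ss, 2.73% and 1.63% of 4ss, 4.88% and 6.25% of 7ss and 6.93% of HH11 cells. At least 3 were found in 0.0508% and 0.175% of HH5, 0.0325% and 0.0329% of 1ss, 0.154% and 0.0562% of 4ss, 0.912% and 1.49% of 7ss and 1.19% of HH11 cells. Both 7ss libraries lay above all 6 earlier libraries on both measures. The shares of cells with each gene differed between libraries too, and no share expected from them was computed. Whether the genes met in a cell more often than those shares give was not tested. Exactly 4 were held by 2 and 13 cells at 7ss and 4 at HH11 and by none before, and no cell among 41021 held all 5, which allows a share of up to 0.00731%.

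**Figure D5:**
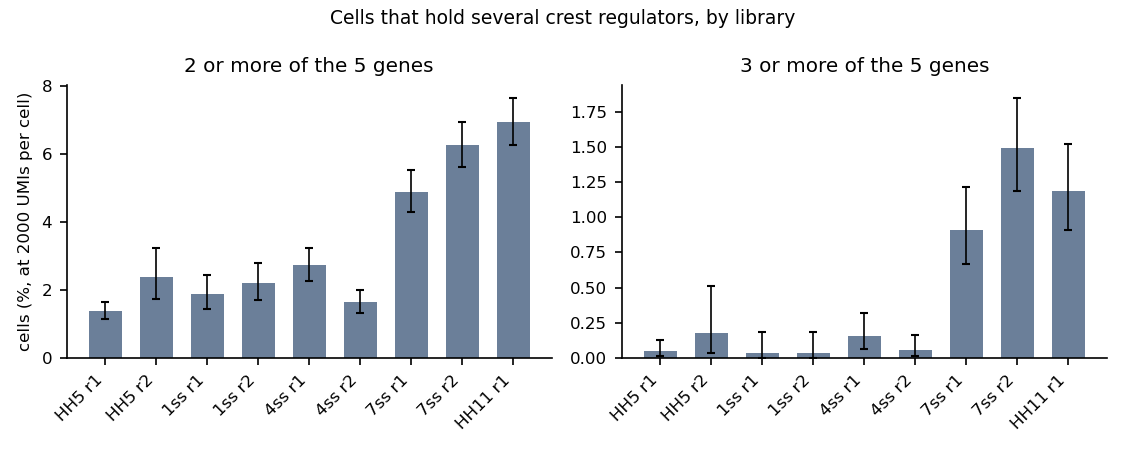
Percent of cells (y axes, 95% intervals) that held at least 2 and at least 3 of the 5 genes at 2000 UMIs a cell, by library. The 7ss libraries stand at 4.88% and 6.25% for at least 2, above the 1.37% to 2.73% of the 6 earlier libraries.

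The levels of the genes were also compared over the 31 sums of marker class and library, as a description in which sums share libraries and depth. The HH11 sums are included, where LMO4 stood highest, at 383 and 260 CPM in DLX5 and TWIST1 cells. How far the r values rest on HH11 was not tested. Over 7195 genes, FOXD3 was most like PKLR (Pearson r 0.71), SNAI2 most like EXOC6 (0.79), ETS1 most like TMEM204 (0.85), LMO4 most like WNT2B (0.81) and ZEB2 most like PLEKHO1 (0.88). LMO4 was also near HIF1A (0.79). Among themselves the 5 genes were less alike over these sums, with r between -0.21 for SNAI2 with ZEB2 and 0.42 for ETS1 with LMO4, and FOXD3 with SNAI2 at -0.09. FOXD3 averaged only 3.88 CPM over these sums, which leave out the cells without a marker, so its r values rest on few UMIs.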

How the data were processed

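Single-cell RNA sequencing counts were analysed for 9 libraries of chick midbrain-level tissue. The deposited matrices hold UMI counts per gene and barcode that the authors made with Cell Ranger on an extended annotation of the GRCg6a genome, and no normalization had been applied. Barcodes with 200 to 4000 genes and at most 40% mitochondrial counts were kept, since the stated limit of 0.4% would leave 0.0128% to 11.4% of them, and predicted doublets (4.43% to 18.4% a library) were removed. Counts were summed per library and group of cells (at least 50 cells) and tested with edgeR 4.0.16 (TMM, filterByExpr, quasi-likelihood F test) with Benjamini-Hochberg adjustment over all genes, at 0.05. A gene was tested only where the filter on low counts kept it. For shares, cells of at least 2000 UMIs (1715 to 7876 a library) were thinned to 2000. Intervals are exact 95% intervals and cover counting error only. DESeq2 1.42.0, other filters and scalings, doublets kept, a subtraction of 10% empty-droplet RNA and leaving out each library were tried as alternatives. The paper calls the samples of a stage independent and pools several embryos in each. It does not say whether they were dissected or processed on separate days, so p-values of the stage fits measure the spread between these samples. Fits that compare cells of the same library carry a term for each library. Their p-values measure the spread of the differences within libraries. The members and lists were chosen with earlier results of these data known. Beyond the members, the text names the 5 genes with the largest rise in every library of a comparison, the 5 most alike over the sums, and up to 6 genes of each list by size of change, and some genes that this rule names are not reported here. Nearby genes that share reads were not resolved, and the files hold no coordinates.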

Additional observations from a re-analysis of the deposited data

Results flagged for a closer look

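Each value here is a difference between 2 groups under the same contrast, taken from the interaction term of the edgeR fit and past an adjusted p of 0.05. No explanation of these differences was tested.

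The change from HH5 to 7ss differed between marker classes. Against SOX21 cells, DLX5 cells had a stage change higher by 2.45 on the log2 scale for ZEB2, 0.88 for LMO4 and 4.77 for FOXD3. TWIST1 cells had a stage change lower than SOX21 cells for SNAI2 (-2.89) and LMO4 (-0.57) and higher for FOXD3 (3.55). The FOXD3 value rests on 2 and 0 UMIs in TWIST1 cells at HH5 and on 5 and 14 at 7ss. Each of these calls in TWIST1 cells was lost without HH5 r1, as were those of ZEB2 and LMO4 in DLX5 cells.

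The difference between cells with and without a gene was larger at 7ss than at HH5 for 12 pairs of FOXD3, SNAI2, ETS1 and LMO4, which are 6 co-detections read both ways. In FOXD3 cells it was larger by 5.02 for SNAI2, 3.41 for ETS1 and 2.37 for LMO4, and in SNAI2 cells by 5.38 for FOXD3, 1.72 for ETS1 and 1.21 for LMO4. In ETS1 cells it was larger by 4.11 for FOXD3, 1.68 for SNAI2 and 1.37 for LMO4, and in LMO4 cells by 2.62 for FOXD3, 1.15 for ETS1 and 0.83 for SNAI2. No such difference passed for ZEB2 in the cells of any of the 4 other genes, nor for any of the 4 in ZEB2 cells.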

How the results depend on the processing

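Of 66 values past the edgeR threshold, 784 of 940 refits kept direction and call, 153 kept the direction and lost the call, and 3 reversed, and 14 of these values kept their call in all of their alternatives. Of 68 values short of the threshold, 910 of 1030 refits stayed short with the same direction, 50 passed and 70 changed sign. Where a call was lost or a sign turned, the cause was not tested beyond the values given here. Values by stage, sums of at least 10 cells and the leave-one-out of the values by stage were chosen after seeing the data.

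DESeq2 called 1, 1 and 2 of 5 genes at 1ss, 4ss and 7ss against HH5 in all cells (0, 0 and 1 by edgeR). It called 0 of 4 in FOXD3 cells, 1 in SNAI2 cells and 1 in LMO4 cells over all stages (3, 2 and 2 by edgeR), 0 in FOXD3, SNAI2 and ZEB2 cells at HH5 (2, 1 and 1), and 0 for the stage difference in LMO4 cells (3). Without the filter on low counts the counts were 1 at 4ss and 2 at 7ss in all cells, 2 in TWIST1 cells at 7ss (1 with the filter), 5 for the stage difference of DLX5 and SOX21 cells (3) and 3 in ETS1 cells (1). With any UMI of a marker counted, they were 0 in SOX21 cells at 7ss (1) and 5 for DLX5 less SOX21 cells (3). With doublets kept they were 0 in TWIST1 cells at 7ss and 3 in ETS1 cells, with a mitochondrial limit of 20% 0 in SOX21 cells at 7ss, and with 10% of free RNA subtracted 1 in LMO4 cells (2). In cells of at least 2000 UMIs they were 0 in SOX21, TWIST1 and KDR cells (1 each) and 1 in FOXD3 cells (3). Thinned to 2000 UMIs they were 2 in ETS1 cells (1) and 0 in ZEB2 cells over all stages (1), 0 in SNAI2 and ZEB2 cells at HH5 (1 each) and 0 in ZEB2 cells at 7ss (3).

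The replicate numbers did not pair the libraries: over 7720 genes the deviations of same-numbered libraries from their stage means correlated at -0.257 to 0.103 in 6 pairs of stages, with 1 pair over 0.1. With the replicate number as a replicate block in the stage fits, the count was 0 in SOX21 and in TWIST1 cells at 7ss (1 each). With no replicate block, that is with the library term taken out of the fits that compare cells of the same library, 0 members were called over all stages in FOXD3, SNAI2, ETS1, LMO4 and ZEB2 cells (3, 2, 1, 2 and 1 with the block), 0 at HH5 in FOXD3, SNAI2 and ZEB2 cells, 1 at 7ss in SNAI2 and ETS1 cells (4 each), 0 at 7ss in LMO4 and ZEB2 cells (4 and 3), and 0 for the stage difference in FOXD3, SNAI2, ETS1 and LMO4 cells (3 each). It also left 1 for the stage difference of DLX5 and SOX21 cells and 0 for that of TWIST1 and SOX21 cells (3 each). In FOXD3 cells at 7ss this count stayed within 1.5 times that with the block.

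Signs turned mostly in values near 0. LMO4 at 4ss against HH5 was 0.0098 with doublets kept, and ZEB2 at 7ss in SOX21 cells 0.14 with any UMI of a marker. In KDR cells LMO4 was 0.033 by DESeq2, 0.0064 with RLE factors, 0.15 at the 20% limit, 0.44 with doublets kept, 0.21 with any UMI and 0.20 with sums of at least 10 cells. There FOXD3 was 0.18 at the 20% limit and 0.26 in cells of at least 2000 UMIs, and ZEB2 was 0.026 with doublets kept and 0.049 with sums of at least 10 cells. FOXD3 in DLX5 cells was -0.49 by DESeq2. In SNAI2 cells FOXD3 was -0.26 over all stages by DESeq2, ZEB2 was 0.0090 over all stages with no replicate block and -0.14 at HH5 when thinned, its stage difference was -0.041 by DESeq2 and -0.16 with no block, and ETS1 at HH5 was -0.10 with no block. In ETS1 cells at HH5 SNAI2 was -0.13 with no block, -0.015 with doublets kept and -0.014 when thinned, and ZEB2 was 0.090 with no block. In LMO4 cells ZEB2 was -0.0025 in cells of at least 2000 UMIs and -0.15 when thinned over all stages, -0.033 with doublets kept and -0.12 when thinned at HH5, and -0.043 when thinned at 7ss. In ZEB2 cells ETS1 was 0.12 with doublets kept and SNAI2 0.13 when thinned over all stages, LMO4 at HH5 was -0.072 with no block, -0.034 with doublets kept and -0.17 when thinned, LMO4 at 7ss -0.032 with doublets kept and -0.22 when thinned, its stage difference -0.053 when thinned, and that of FOXD3 0.081 by DESeq2 and 0.17 with no block.

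With each library left out in turn, LMO4 in all cells ranged from -0.73 to 0.085 at 1ss and from -0.42 to 0.39 at 4ss. At 7ss in SOX21 cells ZEB2 ranged from -0.37 to 0.26, LMO4 from -0.24 to 0.60 and ETS1 from -0.071 to 0.84, and in TWIST1 cells LMO4 ranged from -0.82 to 0.051. In KDR cells SNAI2 ranged from -0.85 to 2.14, ZEB2 from -1.17 to 0.33 and LMO4 from -0.27 to 0.089, and in DLX5 cells FOXD3 ranged from -0.62 to 1.04. Over all stages ZEB2 ranged from -0.13 to 0.076 in SNAI2 cells and from -0.16 to 0.050 in ETS1 cells, and ETS1 from -0.17 to 0.014 in ZEB2 cells. At HH5 the ranges were -1.48 to 1.28 for ZEB2 in FOXD3 cells, -1.37 to 1.36 for FOXD3, -0.30 to 0.26 for ETS1 and -0.0070 to 0.051 for LMO4 in ZEB2 cells, -0.42 to 0.21 for ETS1 in SNAI2 cells, -0.26 to 0.11 for SNAI2 and -0.22 to 0.43 for ZEB2 in ETS1 cells, and -0.0064 to 0.24 for ZEB2 in LMO4 cells. For the stage difference they were -0.55 to 2.28 for ZEB2 in FOXD3 cells, -0.56 to 0.19 for ZEB2 in SNAI2 cells, and -0.59 to 0.23 for SNAI2 and -0.43 to 2.32 for FOXD3 in ZEB2 cells. The members called ranged from 0 to 1 at 4ss and 0 to 2 at 7ss in all cells, from 0 to 1, 1 to 5 and 0 to 2 in SOX21, DLX5 and TWIST1 cells, from 1 to 5 for DLX5 less SOX21 cells and 0 to 3 for TWIST1 less SOX21 cells. They ranged from 1 to 4, 1 to 2 and 1 to 2 in FOXD3, ETS1 and LMO4 cells over all stages, from 0 to 2, 0 to 1 and 0 to 1 in FOXD3, SNAI2 and ZEB2 cells at HH5, from 1 to 3 in ZEB2 cells at 7ss, and for the stage difference from 1 to 3 in LMO4 cells and 0 to 1 in ZEB2 cells.

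Counts of all genes called moved more. Against HH5 in all cells, with the range over the alternatives in parentheses, they were 5 (0 to 107) at 1ss, 83 (26 to 994) at 4ss and 1197 (80 to 2899) at 7ss, and at 7ss 877 (98 to 2356) in SOX21, 639 (85 to 1509) in DLX5 and 917 (109 to 1958) in TWIST1 cells. Against SOX21 cells they were 2746 (1552 to 3029) in DLX5 and 1759 (231 to 3363) in KDR cells, and for the stage difference 610 (37 to 1218) and 1591 (117 to 2371) in DLX5 and TWIST1 cells. Over all stages, at HH5, at 7ss and for the stage difference they were 307 (61 to 1371), 297 (0 to 476), 2040 (154 to 2493) and 560 (0 to 761) in FOXD3 cells, 1723 (296 to 2112), 1111 (1 to 1594), 1898 (19 to 3335) and 821 (1 to 1602) in SNAI2 cells, 1290 (60 to 1760), 124 (0 to 282), 2891 (68 to 4267) and 545 (2 to 1333) in ETS1 cells, 2951 (1 to 3349), 16 (0 to 291), 3968 (1 to 5261) and 284 (0 to 1890) in LMO4 cells, and 3679 (366 to 4049), 420 (0 to 1167), 3869 (7 to 5522) and 229 (0 to 2249) in ZEB2 cells. The lowest count came from the fit with no replicate block in 21 of the 31 comparisons, and in KDR cells from cells of at least 2000 UMIs, where fewer libraries held enough KDR cells.

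Depth limits the rare genes: FOXD3 was read from 54 to 414 cells a library at HH5 and 7ss, and a single library, HH5 r1, held most of the FOXD3 cells at HH5. The fits of FOXD3 cells by stage had 2 residual degrees of freedom, and those over all stages held the HH5 and 7ss libraries only.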

Other observations

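Midline and endoderm genes were also read in the FOXD3 cells, from 222 and 54 cells at HH5 and 166 and 414 cells at 7ss. Of 5 notochord markers, the BMP antagonist gene CHRD (log2 1.57, SE 0.130) and the signal gene SHH (1.40, SE 0.315) were higher in FOXD3 cells at HH5, and SHH (1.32, SE 0.170) and FOXA2 (0.71, SE 0.196) were higher at 7ss, all called by edgeR. The summed level of the 5 notochord markers was 466 and 347 CPM in FOXD3 cells at HH5 against 180 and 267 CPM in the other cells, and 41.0 and 197 CPM at 7ss against 60.4 and 116 CPM, so the sums lay on both sides of the other cells at 7ss.

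Of 6 endoderm markers, 5 were lower in FOXD3 cells at HH5, with the thyroid hormone carrier TTR at -4.29 (SE 0.292), CER1 at -3.79 (SE 0.710), SOX17 at -2.79 (SE 0.234), HHEX at -2.36 (SE 0.207) and the apolipoprotein APOA1 at -2.15 (SE 0.145), and the sixth, FOXA2, did not pass (0.58, SE 0.186, edgeR adjusted p = 0.0574). At 7ss 3 of the 6 were lower. These summed markers were at 355 and 93.5 CPM in FOXD3 cells at HH5 against 1491 and 296 CPM, and 3 of the 6 were at 0 in the FOXD3 cells of HH5 r2. FOXA2 stands in both lists.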
